A study of Homo sapiens with 6 samples.

Results

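Cytosolic ribosomal protein genes were examined for peaks of the transcription factors TCF4, HAND2 and MEIS2 in the established human neuroblastoma line SK-N-BE(2). Members were the protein-coding genes on chromosomes 1 to 22 and X whose symbol is RPL or RPS followed by a number, with or without A, X or L, together with RPLP0, RPLP1, RPLP2 and RPSA. S6 kinase genes were left out. The rule gave 81 of 19974 protein-coding genes, of which 49 encode proteins of the large subunit and 32 proteins of the small subunit. They lie on 21 chromosomes, and 12 of them are on chromosome 19. CUT&Tag was used, an assay that ties a transposase to an antibody on the bound protein so that nearby DNA is cut and tagged. There were 2 libraries with a HAND2 antibody, 2 with a MEIS2 antibody and 1 with a TCF4 antibody. The labels name no treatment, time point or genetic change for any of them, and the control was an IgG library, whose own peaks are not analysed here. All libraries came from 1 cell line, and nothing in the labels says that the replicates were separate cultures, so their spread may be technical.

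The cytosolic ribosome translates nuclear-encoded mRNA, and its proteins are made in matched amounts from genes scattered over the genome. Most of these genes begin transcription at a C within a run of pyrimidines, and the mRNA then carries a terminal oligopyrimidine (TOP) tract through which mTOR and LARP1 adjust translation. MYC proteins raise ribosome production, and SK-N-BE(2) carries amplified MYCN. HAND2 and TCF4 are basic helix-loop-helix factors that bind E-boxes as dimers, and MEIS2 is a TALE homeodomain factor that often pairs with PBX proteins.

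The starts of the genes on which the results turn are printed to show the pyrimidine tract there. Each run holds 6 bases before the annotated start and 20 from it, read 5′ to 3′ on the gene's strand from RefSeq (GRCh38.p14). Capitals mark the tract, counted from the C nearest to the start to the last C or T.
RPL39, chrX:119791611-119791636, minus strand: cagcttCCCTCCTCTTCCTTTCTCCg
RPL7A, chr9:133348212-133348237, plus strand: cctttcCTTTCTCTCTCCTCCCgccg
RPL10 at the middle of its 3 annotated starts, chrX:154398371-154398396, plus strand: gagcgcCTCTTTCCCTTCggtgtggt
RPS6, chr9:19380217-19380242, minus strand: ttggccCTCTTTTCCgtggcgcctcg
RPSA, chr3:39406714-39406739, plus strand: gcctgtCTTTTCCgtgctacctgcag
RPL38, chr17:74203672-74203697, plus strand: ctcgttCTTTTTCgtccttttccccg
RPS25, chr11:119018324-119018349, minus strand: cgcttcCTTTTTgtccgacatcttga
RPL12, chr9:127451387-127451412, minus strand: ttccggCCTCTCggctttcggctcgg
In all 8 the tract begins at the start itself, but these starts were printed to show a tract and do not stand for all members. Of 64 members with a promoter entry, 50 had a tract at the first annotated start, and in 42 it began there. RPL10 had none at its first annotated start. In the 8 printed starts the tract length ran from 19 bases in RPL39 to 6 in RPS25 and RPL12.

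The DNA at the peak summits is printed for 8 members, chosen to show summits with and without an E-box close by. Each run lies wholly before the annotated start nearest to the summit named, within 60 bases of that summit, and is read on the gene's strand. For RPS27A this is not the first annotated start, which lies further upstream. Capitals mark an E-box (CANNTG), a MEIS core (TGACAG) or the PBX and MEIS motif TGATTNAT, on either strand.
RPL10, TCF4 summit, chrX:154397824-154397944, plus strand: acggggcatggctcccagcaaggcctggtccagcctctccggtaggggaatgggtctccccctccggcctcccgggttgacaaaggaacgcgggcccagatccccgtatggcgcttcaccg
RPS25, TCF4 summit, chr11:119018482-119018593, minus strand: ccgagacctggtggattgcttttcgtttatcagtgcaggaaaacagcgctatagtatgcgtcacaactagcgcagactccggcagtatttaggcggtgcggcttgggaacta
RPS6, MEIS2 replicate 1 summit, chr9:19380326-19380446, minus strand: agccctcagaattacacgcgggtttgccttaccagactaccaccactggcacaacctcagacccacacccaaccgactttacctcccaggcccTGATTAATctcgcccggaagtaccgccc
RPL35A, MEIS2 replicate 1 summit, chr3:197949940-197950025, plus strand: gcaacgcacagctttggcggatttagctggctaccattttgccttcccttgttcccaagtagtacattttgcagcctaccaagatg
RPLP0, TCF4 summit, chr12:120201294-120201361, minus strand: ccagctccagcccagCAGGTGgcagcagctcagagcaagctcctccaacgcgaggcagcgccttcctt
RPL35, TCF4 summit, chr9:124862106-124862207, minus strand: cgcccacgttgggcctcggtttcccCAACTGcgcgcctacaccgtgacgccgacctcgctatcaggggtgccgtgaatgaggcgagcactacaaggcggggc
RPL13A, TCF4 summit, chr19:49487358-49487467, plus strand: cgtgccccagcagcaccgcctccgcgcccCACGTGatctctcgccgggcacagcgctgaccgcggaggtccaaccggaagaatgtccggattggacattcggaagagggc
RPS27A, TCF4 summit, chr2:55232573-55232677, plus strand: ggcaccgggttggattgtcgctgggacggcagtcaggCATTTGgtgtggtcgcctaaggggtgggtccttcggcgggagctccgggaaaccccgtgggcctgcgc
The runs at RPL10, RPS25 and RPL35A hold none of these motifs. That at RPS6 holds TGATTAAT, a match to TGATTNAT, its centre 36.5 bases from the MEIS2 replicate 1 summit, and the other 4 hold 1 E-box each. The E-box centre lay 10.5 bases from the TCF4 summit in RPLP0, 13.5 in RPL35, 17.5 in RPL13A and 20.5 in RPS27A. A match is a description of letters and not a shown binding site.

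The lists held 9595 to 33484 peaks. By a depth inferred from the peak values, the MEIS2 libraries were the shallowest, at 0.248 and 0.368 of the IgG depth against 0.784 to 0.932 for the others. The median fragment pile-up at summits was 13 and 22 in MEIS2 and 34 to 60 elsewhere. A MEIS2 site missing from a list is therefore not shown to be free of MEIS2. In MEIS2 replicate 2 the peak names carry the word Flag, although the labels give the same antibody for both MEIS2 libraries. A gene was called where a peak overlapped the 1 kb on either side of a gene end by at least 1 bp. Its fold is the authors' value at the highest such peak, a ratio of piled-up fragments at the summit over local IgG background. Folds rank peaks within 1 list and are not compared between lists.

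TCF4 had a peak at most ribosomal protein genes, HAND2 at 20 of them in both replicates, and MEIS2 at 1 in both replicates. In the TCF4 list 58 of 81 members were called, 71.6% (95% exact binomial interval 60.5 to 81.1%), against 53.9% of all protein-coding genes. HAND2 replicate 1 called 23 members, 28.4% (18.9 to 39.5%), against 20.6% of all genes. HAND2 replicate 2 called 31, 38.3% (27.7 to 49.7%), against 27.8%. Both HAND2 replicates called the same 20 members, 24.7% (15.8 to 35.5%), against 18.8%. The member share was the higher one in each of these lists, and only the TCF4 interval lay wholly above the share of all genes. MEIS2 replicate 1 called 21 members, 25.9% (16.8 to 36.9%), against 11.5% of all genes, again with the interval above that share. MEIS2 replicate 2 called 1 member, 1.23% (0.0313 to 6.69%), against 2.18%, and both MEIS2 replicates called 1 member, 1.23%, against 1.0%. The MEIS2 excess thus stood in 1 library of 2. Intervals here and below cover counting error only.

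**Figure D1:**
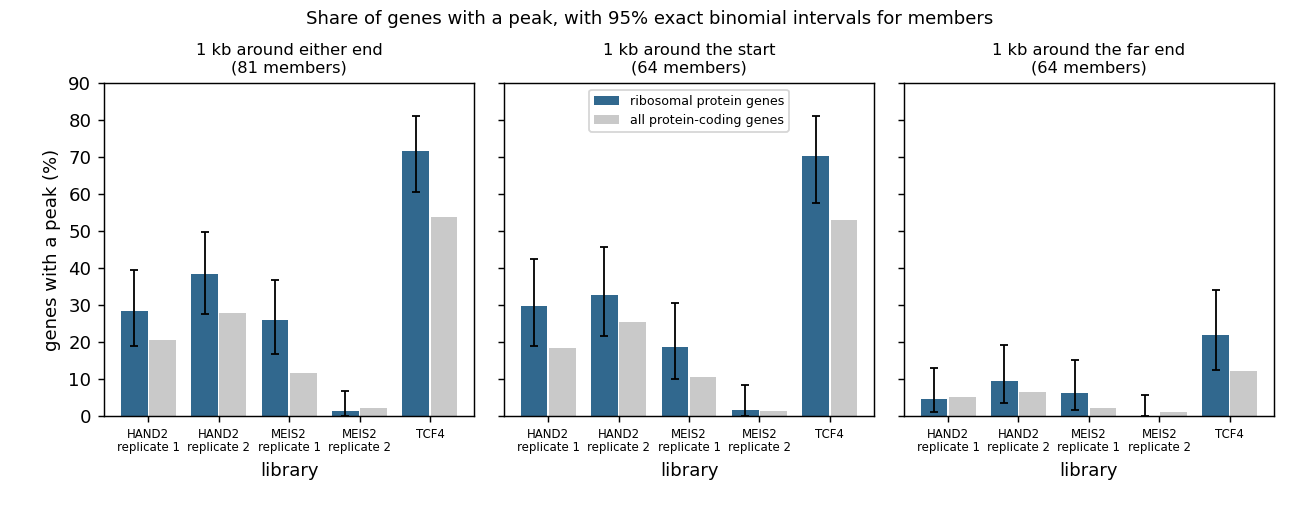
Share of genes with a peak (%) by library, for ribosomal protein genes (blue, with 95% exact binomial intervals) and all protein-coding genes (grey), around either gene end, the start or the far end. TCF4 reaches 71.6% of members at either end against 53.9% of all genes, and MEIS2 replicate 2 reaches 1.23% against 2.18%.

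More members had a peak at the start than at the far end in each list. The strand and start were at hand for 64 members and 15813 genes. TCF4 had a peak at the start of 45 of the 64 members, 70.3% (57.6 to 81.1%), against 52.9% of all genes, and at the far end of 14, 21.9% (12.5 to 34.0%), against 12.3%. The TCF4 intervals at both ends thus lay above the shares of all genes. At the start HAND2 replicate 1 called 19 members, 29.7% (18.9 to 42.4%), against 18.4% of all genes, with the interval above that share. Replicate 2 called 21, 32.8% (21.6 to 45.7%), against 25.4%, and both called 16, 25% (15.0 to 37.4%), against 16.6%. The intervals of replicate 2 and of both held the share of all genes. At the far end HAND2 replicate 1 called 3 members, 4.69% (0.977 to 13.1%), against 5.20% of all genes. Replicate 2 called 6, 9.38% (3.52 to 19.3%), against 6.60%, and both called 3, 4.69%, against 4.48%. The far-end intervals of HAND2 thus held the share of all genes. MEIS2 replicate 1 called 12 members at the start, 18.8% (10.1 to 30.5%), against 10.6%. It called 4 at the far end, 6.25% (1.73 to 15.2%), against 2.18%. Both of these intervals held the share of all genes. MEIS2 replicate 2 called 1 at the start (1.56%, against 1.40%) and 0 at the far end (against 1.01%). Both MEIS2 replicates called 1 at the start (1.56%, against 0.784%) and 0 at the far end (against 0.379%).

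Among the strongest peaks of the TCF4 list the member share did not stand above that of all genes. Within the 5000 peaks of highest fold in each list, TCF4 called 5 members, 6.17% (2.03 to 13.8%), against 8.51% of all genes. Those 5 were RPL10, RPL18, RPL39, RPS25 and RPL41. HAND2 called only RPL12 in replicate 1, 1.23% (against 1.08% of all genes), and only RPL38 in replicate 2, 1.23% (against 1.35%). MEIS2 replicate 1 called 9 members, 11.1% (5.21 to 20.05%), against 3.66% of all genes, and replicate 2 called 0 (against 0.571%). The 5000 peaks are a larger part of the 9595 in MEIS2 replicate 1 than of the longer lists, so these counts are not compared between lists. Over all called genes the median fold of members against all genes was 3.21 against 3.47 in HAND2 replicate 1 and 3.52 against 3.38 in replicate 2. It was 5.66 against 4.58 in MEIS2 replicate 1 and 5.60 against 5.33 in TCF4. The median IgG background at the members' peaks was lower than at all genes' peaks in every list, at 16.5 against 22 fragments in TCF4.

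**Figure D2:**
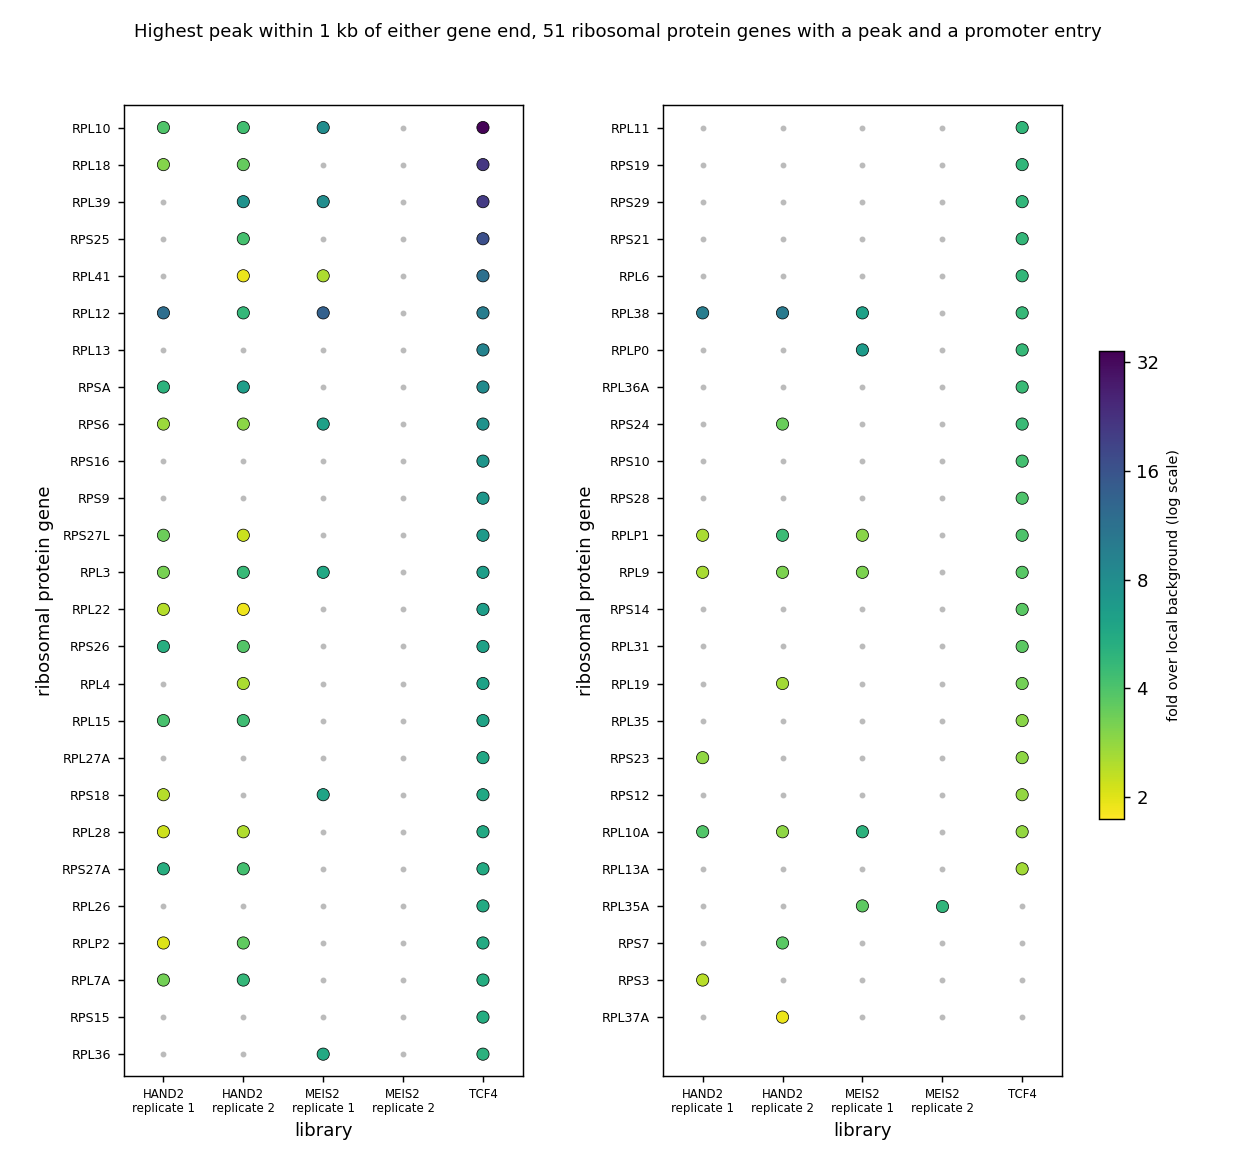
Fold over local background of the highest peak at each of the 51 members with a peak and a promoter entry, by library, ordered by TCF4 fold. Colour gives the fold on a log scale and a small grey point means no peak. The TCF4 column is filled for 47 of them, from 33.3 at RPL10 to 2.64 at RPL13A, and the MEIS2 replicate 2 column for RPL35A alone.

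The highest TCF4 fold at a ribosomal protein gene was at RPL10, whose protein joins the large subunit late and is needed for subunit joining. RPL10 (X, 154398065 to 154402339) had a TCF4 fold of 33.3 (95% counting interval 30.04 to 36.9), from a pile-up of 372 over 13 IgG fragments, with the summit 181 bp before its nearest annotated start. This fold exceeded that of 99.4% of all genes with a TCF4 peak. RPL18, a large-subunit protein gene, stood at 21.2 (18.3 to 24.4), but its summit was 26 bp from an end of the neighbouring SPHK2. RPL39, which encodes a small protein of the exit tunnel, stood at 20.3 (16.6 to 24.7), with the summit 306 bp before its start and no other gene reached. RPS25, a small-subunit protein gene linked to internal ribosome entry, had 16.5 (14.9 to 18.1) and the highest pile-up of any member, 416. Its peak also reached TRAPPC4. The 4 genes had the highest TCF4 folds among members, and the next stood at 11.6.

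The next 6 members by TCF4 fold ran from 11.6 to 7.59. RPL41, which encodes the smallest ribosomal protein, had 11.6 (10.3 to 13.0) at its far end, with the summit 75 bp from an end of ZC3H10. RPL12, at the base of the stalk, had 9.78 (8.17 to 11.6) on a peak that also reached LRSAM1. RPL13 had 9.08 (7.59 to 10.8) at its own start, 147 bp past it. RPSA, whose protein is also known as the laminin receptor precursor, had 8.26 (6.49 to 10.4) at 51 bp past its start. RPL3L, the striated-muscle counterpart of RPL3, had 8.18 (7.26 to 9.19), with the summit 124 bp from an end of MSRB1, and a weaker TCF4 peak of 5.78 (4.18 to 7.79) with the summit 200 bp from its other end and no other gene reached. RPS6, the target of the S6 kinases, had 7.59 (5.96 to 9.53) at 348 bp before its start. For RPL12, RPL41 and RPL3L the summit was nearer to the neighbouring gene, so position does not tie these highest peaks to the ribosomal protein gene. The remaining 48 members with a TCF4 peak had folds of 1.92 to 7.28, and the lowest was RPS20. TCF4 had 1 library, so none of its values has a replicate check.

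HAND2 peaks recurred between replicates at 20 members, and 18 of these had overlapping counting intervals. The other two were RPL12 and RPLP2. Of the rest, 3 members were called in replicate 1 alone, 11 in replicate 2 alone and 47 in neither. At all 20 a peak of replicate 1 overlapped one of replicate 2. The highest peaks themselves overlapped at 18, the exceptions being RPL10A and RPL3. The median gap between the highest summits of the replicates was 89 bp, and it was within 200 bp for 13 members.

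By the lower of its folds in the replicates, the highest HAND2 member was RPL38, a gene linked to translation of Hox mRNA in the mouse, and not at its start. RPL38 (17, 74203678 to 74210655) had folds of 9.85 (7.72 to 12.4) and 10.1 (7.93 to 12.8) in replicates 1 and 2, with summits 6776 and 6890 bp past the start, 201 and 87 bp from the gene's far end. No HAND2 peak reached its start, and the MEIS2 replicate 1 peak of RPL38, at 6.33, was likewise at the far end. TCF4 had a peak at each end of RPL38, at 4.29 by the start and 4.68 by the far end. RPL12 had 11.8 (9.37 to 14.7), the highest member fold of replicate 1, and 4.73 (3.69 to 5.98), with summits 1277 and 315 bp before the start on peaks that also reached LRSAM1. The counting intervals at RPL12 did not overlap, and the summits were 962 bp apart. RPSA had 5.06 and 6.5, 37 and 51 bp past its start.

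Of the others, 8 had a fold of at least 3 in both replicates, RPL3 among them. RPS26, at the mRNA exit site of the small subunit, had 5.27 and 3.87. RPS27A, which encodes ubiquitin fused to a ribosomal protein, had 5.27 and 4.26 on a peak shared with CLHC1. RPL15 had 4.13 and 4.41, close to its start. RPL23A, a docking site of the signal recognition particle, had 3.96 and 4.59, and RPL10 had 3.96 and 4.27. RPL7A had 3.29 and 4.73 on a peak shared with MED22. RPL18 had 3.01 and 3.52 on a peak shared with SPHK2. The order of these folds differed between the replicates, and their intervals overlapped.

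RPL3, which lies at the peptidyl transferase centre, was called at both ends. Its start peak had 3.21 and 3.36 in replicates 1 and 2, and its far-end peak 2.73 and 4.61. RPL10A was called at its far end, with 3.90 and 2.88 at summits 885 bp apart. The 8 members left had a fold under 3 in at least 1 replicate. RPS6 had 2.74 and 2.94 on a peak with the same first and last base in both lists. RPL9 had 2.56 and 3.12 near LIAS, and RPL28 2.18 and 2.48 near TMEM238. RPL7 had 2.29 and 2.64 over the highest IgG background of any member, 74.0 and 72.0 fragments. RPL22, whose protein binds viral small RNA, had 2.42 and 1.87. RPS27L and the stalk genes RPLP1 and RPLP2, described below, complete the 20.

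**Figure D3:**
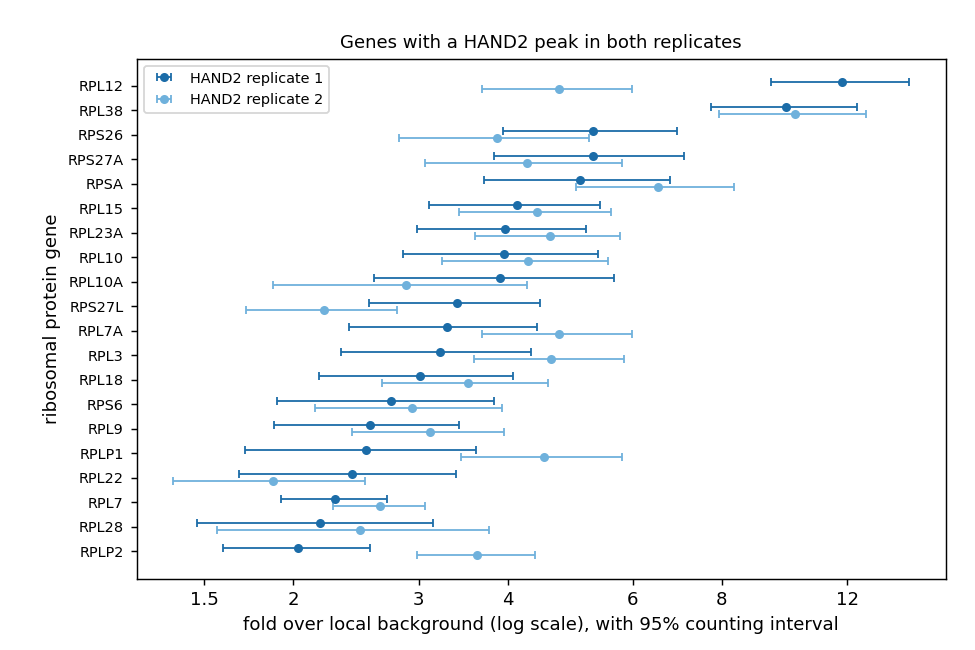
HAND2 fold over local background (log axis) in replicates 1 and 2 for the 20 members called in both, with 95% counting intervals. RPL38 sits at 9.85 and 10.1, and RPL12 and RPLP2 are the pairs whose intervals do not overlap.

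Peaks in 1 HAND2 replicate were mostly weak, with an exception at RPL39. The 3 members called in replicate 1 alone were RPS23 at 2.86, RPS18 at 2.42 and RPS3 at 2.41. Of the 11 in replicate 2 alone, RPL39 had 7.60 (5.53 to 10.2), with its summit 306 bp before the start and a pile-up of 42, whereas the nearest replicate 1 summit was 98611 bp away. The TCF4 summit of RPL39 was at the same base. RPS25 had 4.21, RPS7 3.72 and RPS24 3.46, and the other 7, among them RPL19, RPL4, RPL8, RPS15A, RPL41 and RPL37A, had folds of 1.90 to 2.65. The nearest summit in the other replicate lay 3692 to 277560 bp away for these 14 members.

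MEIS2 peaks at ribosomal protein genes came from replicate 1, and RPL35A alone had one in both replicates. RPL35A, a gene mutated in Diamond-Blackfan anaemia, had folds of 3.64 (1.92 to 6.42) and 4.90 (2.58 to 8.63), each from a pile-up of 10. The summits lay 225 and 529 bp before the start, and the peaks overlapped. RPL35A had no HAND2 and no TCF4 peak. It is thus a weak site resting on few fragments.

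In MEIS2 replicate 1 the highest member was RPL12, at 13.8 (9.83 to 18.7), with its summit 1448 bp before the start. RPL10 had 8.06 (5.68 to 11.1) and RPL39 8.04 (4.87 to 12.6), 162 and 300 bp before their starts. RPL23A had 7.19, RPLP0 6.77, RPS6 6.40, RPL38 6.33 and RPS18 6.04. These 8 were among the 9 members within the 5000 strongest peaks of that list. Of the other 11 members of replicate 1 beside RPL35A, with folds of 2.24 to 5.75, RPL3 was the highest and RPL7 the lowest, and RPL36, RPL10A, RPS2, RPL37, RPL9, RPLP1, RPL8 and RPL41 lay between them. For the 20 members of replicate 1 alone, the nearest summit of replicate 2 was at least 24898 bp away. The 21 called members comprised 17 of 49 large-subunit genes, 34.7% (21.7 to 49.6%), and 4 of 32 small-subunit genes, 12.5% (3.51 to 29.0%), and the intervals overlapped. The share of all genes was 11.5%, below the large-subunit interval and within the small-subunit one.

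Intervals of the 2 subunits overlapped for TCF4 and HAND2 too, which does not show that the shares are alike. TCF4 called 33 large-subunit genes, 67.3% (52.5 to 80.1%), and 25 small-subunit genes, 78.1% (60.03 to 90.7%). The share of all genes was 53.9%, within the large-subunit interval and below the small-subunit one. Both HAND2 replicates called 15 large-subunit genes, 30.6% (18.3 to 45.4%), and 5 small-subunit genes, 15.6% (5.28 to 32.8%). The share of all genes was 18.8%, within both intervals. The small-subunit genes called in both HAND2 replicates were RPS26, RPS27A, RPSA, RPS6 and RPS27L.

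By role, the stalk genes all carried peaks. RPLP0, RPLP1 and RPLP2 form the flexible stalk that recruits translation factors. RPLP0 had a TCF4 fold of 4.64 and a MEIS2 replicate 1 fold of 6.77 at summits 1 base apart, 243 and 242 bp before its start. RPLP1 had HAND2 folds of 2.53 and 4.504, 2.97 in MEIS2 replicate 1 and 3.997 in TCF4. RPLP2 had HAND2 folds of 2.03 (1.59 to 2.56) and 3.63 (2.98 to 4.37) and a TCF4 fold of 5.59, on peaks that also reached PIDD1.

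The partners of the 5S particle, which can bind MDM2 and stabilise p53, differed. RPL11 had a TCF4 peak at 4.83 (3.64 to 6.28), 106 bp past an annotated start, and RPL5 had no peak in any list. RPS27L, a copy of RPS27 known as a p53 target, had HAND2 folds of 3.40 and 2.21 and a TCF4 fold of 6.83, while RPS27 itself had none. Genes mutated in Diamond-Blackfan anaemia varied as widely. RPS19 had 4.81 and RPS10 4.26 in TCF4 alone, RPS26 6.26 and RPS24 4.54 in TCF4 beside HAND2. RPS7 had 3.72 in HAND2 replicate 2 alone, past its far end. Of the tissue-restricted copies RPL3L, RPL10L and RPL39L, the last 2 had no peak, and RPL3L had the TCF4 peaks given above at both ends.

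Beside the 58 members with a TCF4 peak, RPS7, RPL37A and RPS3 had one in a HAND2 list and RPL35A and RPL37 in a MEIS2 list. The lists share the IgG control, so peaks of different factors at 1 gene are not independent of each other, and no overlap between factors was counted as a result. The same limit holds where summits or peaks of different factors are set side by side, as at RPL39, RPLP0 and RPL38.

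The other 18 members had no peak in any list, and included RPL5, RPL10L, RPL14, RPL17, RPL21, RPL23, RPL24, RPL27, RPL29, RPL30, RPL32, RPL34, RPL39L, RPS3A, RPS4X, RPS13 and RPS27. The share of all protein-coding genes with no peak in any list was not counted, so this number has no background beside it. Some of the 18 had a summit just outside the window and others had none for a long way. The nearest TCF4 summit to RPL17 was 1099 bp from a gene end, with a fold of 3.32, and that to RPL29 2570 bp. RPL34 lay furthest from HAND2, with the nearest summit of either replicate 885889 bp away and with folds of 52.0 and 47.7 there. RPL10L, the testis copy of RPL10, lay 1397507 bp from the nearest TCF4 summit.

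The highest summits lay mostly before the start. Peaks were counted only where they reached 1 kb around a gene end, so closeness to an end follows from this rule. Over members with a known strand, the median position of the highest summit was 243 bp before the start in HAND2 replicate 1 (21 members), 105.5 bp before it in replicate 2 (26), 156 bp before it in MEIS2 replicate 1 (14) and 98 bp before it in TCF4 (47). Summits past the start made up 28.6, 38.5, 42.9 and 42.6% of members in these lists, against 52.1, 53.2, 48.7 and 58.1% of all called genes with a strand. The TCF4 summits were within 250 bp of a start for 55.3% of members and 56.8% of genes. Members thus lay to the 5′ side more often in each of the 4 lists, and no test was made of this difference.

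**Figure D4:**
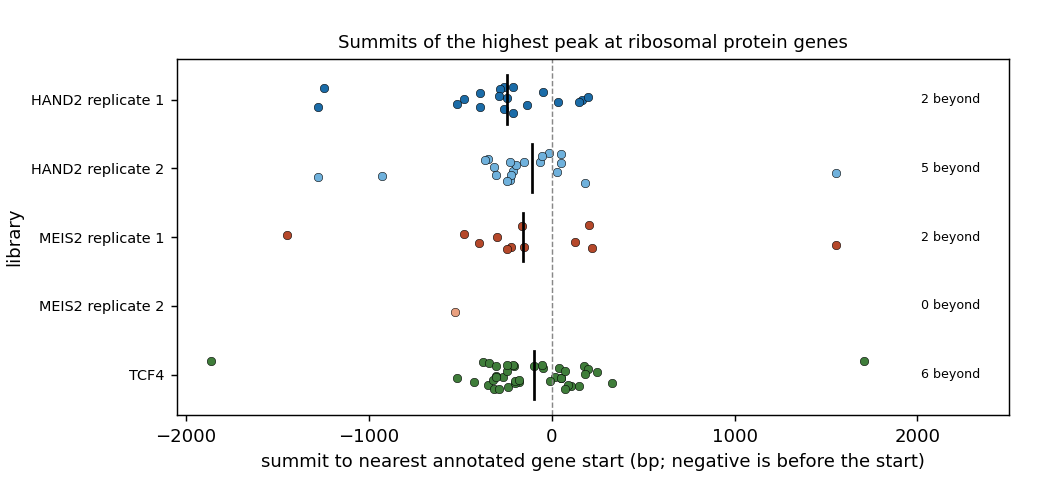
Distance of the highest peak's summit from the nearest annotated start (bp, negative before the start) for each called member with a known strand, by library. Black lines are medians, and the number beyond 2000 bp in either direction is written at the right. The TCF4 median is 98 bp before the start and that of HAND2 replicate 1 is 243 bp before it.

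Some of these peaks were shared with a neighbour. The highest TCF4 peak also reached the window of another protein-coding gene at 25 of 58 members, 43.1%, against 33.4% of all called genes. In the HAND2 lists it did so at 10 of 23 members (43.5%, against 32.6%) and 13 of 31 (41.9%, against 32.6%), and in MEIS2 replicate 1 at 7 of 21 (33.3%, against 36.8%). When a peak was counted only where its summit was within 1 kb of an end and nearest to the member's own end, TCF4 called 46 members, 56.8% (45.3 to 67.8%), against 44.2% of all genes. HAND2 replicate 1 then called 16 members, 19.8% (11.7 to 30.1%), against 15.6%, and replicate 2 called 22, 27.2% (17.9 to 38.2%), against 21.5%. Both HAND2 replicates called 13, 16.05% (8.83 to 25.9%), against 13.4%. MEIS2 replicate 1 called 17, 21.0% (12.7 to 31.5%), against 8.92%. MEIS2 replicate 2 called 1, 1.23%, against 1.58%, and both MEIS2 replicates called 1, 1.23%, against 0.676%. The HAND2 intervals held the share of all genes. The TCF4 and MEIS2 replicate 1 intervals again lay above the share of all genes. At RPL6 the TCF4 peak lay at the end of the gene table's span, 7617 bp before the nearest annotated start and 112 bp from PTPN11.

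Gene length and close neighbours both bear on a window around gene ends. The members' median length was 5015 bp (772 to 27723), against 24170.5 bp for all protein-coding genes. Among the 10688 genes no longer than the longest member, the called share was 51.3% for TCF4, 20.1 and 27.0% for HAND2 replicates 1 and 2, and 11.6 and 1.86% for MEIS2. Leaving out genes longer than the longest member thus changed the shares of all genes little. This cut does not match the members' median length, so an effect of gene length was not tested. Another gene end lay within 1 kb of 30 members, 37.0% (26.6 to 48.5%), against 28.6% of all genes. These were 25 of the 58 with a TCF4 peak and 5 of the 23 without. Introns of ribosomal protein genes host small nucleolar RNAs, and 29 members held 60 snoRNA genes. These were 19 of the 58 members with a TCF4 peak and 10 of the 23 without. The share of all protein-coding genes that hold a snoRNA gene is not given here. The gene table names 1966 pseudogenes after members, with a median of 16 a gene and 137 for RPL21. Whether reads of such copies enter these peaks was not tested.

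A pyrimidine tract was found at more of the member starts than of all starts, and an E-box at fewer. Motifs were searched in the 300 bases from 250 before to 50 after the first annotated start of 64 members and 15813 genes, on both strands except for the tract. A tract, defined as a C within 5 bases of the start with at least 4 pyrimidines after it, stood at 50 member starts, 78.1%, against 22.1% of all starts. It began at the start itself in 42 of the 50, with a median length of 8 bases (5 to 19). An E-box (CANNTG) stood at 28 member starts, 43.8%, against 64.5% of all starts. Among members it was found in 20 of 45 with a TCF4 peak at the start and in 8 of 19 without one. Over all genes the shares were 58.6% with a TCF4 peak and 71.2% without. Over all genes the E-box was thus less frequent where TCF4 had a peak, and between the 2 groups of members the shares were nearly level. Summits outside the 300 bases were not covered, so these are not shares of peaks with an E-box.

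The other motifs divided into those more frequent and those less frequent at member starts. The ETS motif CCGGAAG stood at 22 member starts, 34.4%, against 14.2%, and the YY1 motif AANATGGCG at 8, 12.5%, against 4.82%. Less frequent were CACGTG, the E-box of MYC proteins, at 3 (4.69%, against 8.87%), CAGATG or CATCTG at 3 (against 11.7%) and CAGCTG at 6 (9.38%, against 17.7%). All these E-boxes, and CATATG at 1 start (1.56%, against 1.84%), are among those counted as CANNTG. The MEIS core TGACAG stood at 3 starts (4.69%, against 14.7%), 1 of them RPL10, where it lies past the first start. TGATTNAT stood at 1, RPS6 (1.56%, against 2.07%). The SP1 motif GGGCGG (56.3%, against 58.5%) and TATAAA (9.38%, against 9.64%) had shares close to those of all starts. Over all genes GGGCGG stood at 75.1% of starts with a TCF4 peak and 39.8% without, and TATAAA at 5.06% and 14.8%. Among members GGGCGG stood at 23 of 45 starts with a TCF4 peak and 13 of 19 without. For TATAAA these counts were 4 and 2. The median GC content of the window was 59.3% in members and 62.7% over all genes. It was 60.3% in members with a TCF4 peak at the start and 53% in those without.

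**Figure D5:**
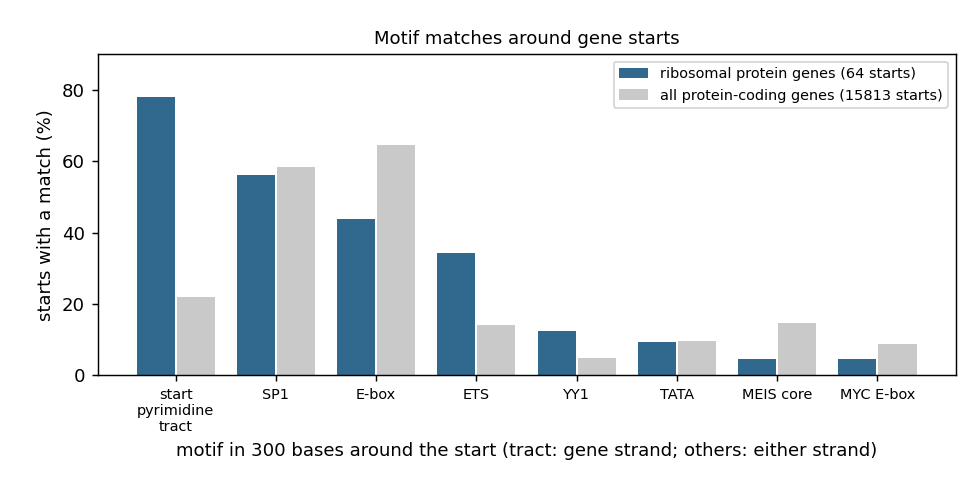
Share of starts (%) with a match to each motif in the 300 bases around the start, for 64 ribosomal protein genes (blue) and 15813 protein-coding genes (grey). The pyrimidine tract stands at 78.1% against 22.1%, and the E-box at 43.8% against 64.5%.

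Promoter entries matched 64 members. The other 17 included RPL3L, RPL5, RPL7, RPL8, RPL23, RPL23A, RPL30, RPL37, RPL39L, RPS2, RPS15A and RPS20.

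Peaks of TCF4 and HAND2 also stood at other genes that work with the ribosome, taken from lists of set members. Of 7 ribosomal protein genes outside the symbol rule, TCF4 called 4, 57.1% (18.4 to 90.1%), and both HAND2 replicates 2, 28.6% (3.67 to 71.0%). Over all genes these shares were 53.9% and 18.8%. RPL36AL, a copy of RPL36A, had a TCF4 fold of 12.3, and RPL7L1 had HAND2 folds of 4.85 and 5.75. FAU, which encodes a ubiquitin-like fusion, had 3.15 in TCF4 alone. Of 20 translation factor and other TOP genes, TCF4 called 17, 85% (62.1 to 96.8%), and both HAND2 replicates 6, 30% (11.9 to 54.3%). EEF1D, an elongation factor subunit, stood at 13.2 in TCF4, and EIF3A, an initiation factor subunit, at 12.01 and 7.10 in HAND2. EIF3A also had peaks in both MEIS2 replicates, at 9.38 and 6.88.

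Of 24 ribosome biogenesis genes, TCF4 called 21, 87.5% (67.6 to 97.3%), and both HAND2 replicates 7, 29.2% (12.6 to 51.1%). Over all genes these shares were 53.9% and 18.8%. UBTF, an activator of RNA polymerase I, stood at 26.8 in TCF4 and at 4.89 and 4.04 in HAND2. Of 10 genes of MYC and growth control, TCF4 called 9, 90% (55.5 to 99.7%), and both HAND2 replicates 5, 50% (18.7 to 81.3%). For both groups of genes the TCF4 interval lay above the share of all genes, and the HAND2 interval held it. MYCN itself had low HAND2 folds of 1.94 and 1.89, 2.94 in MEIS2 replicate 1 and 4.13 in TCF4. The IgG background at MYCN came to 2462 to 2641 fragments, against a median of 18 to 25 over called genes in the same lists. Of 77 mitochondrial ribosomal protein genes, whose products form the ribosome of mitochondria, TCF4 called 48, 62.3% (50.6 to 73.1%), and both HAND2 replicates 16, 20.8% (12.4 to 31.5%). These intervals hold the shares of all genes, and they overlap those of the cytosolic genes.

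Marker genes were looked at as a check of the labelled cell type, through gene-end peaks only. Of 13 noradrenergic neuroblastoma markers, 12 had a peak in both HAND2 replicates, 92.3% (64.0 to 99.8%), against 18.8% of all genes. In TCF4 12 had a peak, 92.3%, against 53.9%. DBH, which makes noradrenaline, had HAND2 folds of 13.3 and 14.5 and a TCF4 fold of 34.0. Of 7 mesenchymal or Schwann cell markers 3 had a peak in both HAND2 replicates, 42.9% (9.90 to 81.6%), of 3 blood markers 1 and of 2 liver markers 0. In TCF4 the counts were 3, 0 and 1. Among the 7, SNAI2 had the highest folds, at 8.66 and 9.49 in HAND2 and 29.0 in TCF4. No ribosomal protein gene had HAND2 folds as high as DBH in both replicates.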

How the data were processed

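CUT&Tag libraries of HAND2 (2 replicates), MEIS2 (2) and TCF4 (1) from SK-N-BE(2) cells were analysed as deposited peak lists, called per sample. Peaks are on hg38, and the submitters' processing notes list MACS3 3.0.0a6, bcl2fastq 2.17 and Bowtie2 without a version. Caller options and duplicate removal are not given there. The fold, a ratio, the −log10 p and the −log10 q were used as the authors deposited them. The deposited score was not used, and the lowest −log10 q was 2.00 to 2.02.

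The lists hold no read totals. The whole pile-up and background at each summit were found from the deposited fold and −log10 p within a relative tolerance of 5e-05, for 100% of peaks. Inference was tested on simulated data. Background is given in IgG fragments, the spacing of the lists' lowest values. A fold's 95% counting interval is the exact Poisson interval of its pile-up over a fixed background, and shares have exact binomial intervals. Fragments may not be independent molecules.

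Gene spans came from the RefSeq table of GRCh38.p14, and starts, strands and sequences from its promoter table. All coordinates are 1-based. Exons, introns and UTRs are not annotated here. Distances to a start use the nearest annotated start. Counts were set beside the same counts over all protein-coding genes, with no test, since members were a chosen list and the TCF4 list has no replicate. The members and lists were chosen with earlier results of these data known. Named genes were those with peaks in both replicates of a factor, the highest folds, members with no peak and members of set roles. For other lists, genes were taken from the 3 highest TCF4 folds and the 3 highest of the lower HAND2 folds, with FAU and MYCN named after their values were seen. Values of a few genes are not reported here by name. Alternatives changed the window, threshold, overlap, end, list length, background, members and replicates. Python 3.11.15, numpy 2.4.6, pandas 2.3.3, scipy 1.17.1 and matplotlib 3.10.9 were used.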

Additional observations from a re-analysis of the deposited data

How the results depend on the processing

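Of 81 alternatives for the counts of members, 59 stayed within 1.5 times the reported count and 22 did not. Keeping the 5000 peaks of highest fold gave 1 member in each HAND2 list, 9 and 0 in the MEIS2 lists, 5 for TCF4, 0 in both HAND2 replicates and 0 in both MEIS2 replicates. Counting the far end alone gave 3, 6, 4, 0 and 14 in the same order of libraries, 3 in both HAND2 replicates and 0 in both MEIS2 replicates. A −log10 q of 5 or more left 13 members in MEIS2 replicate 1, 16.05% (8.83 to 25.9%), against 8.82% of all genes. The lower bound of this interval was only just above the share of all genes. The same threshold left 0 members in MEIS2 replicate 2 (against 1.51%) and 0 in both. MEIS2 replicate 1 gave 12 members at the gene start alone and 12 at any annotated start. Counting only summits nearest to the member's own end left 13 members in both HAND2 replicates. With 1 replicate left out, the count of HAND2 ran from 23 to 31 and that of MEIS2 from 1 to 21. By construction the alternatives with fewer peaks or fewer genes can only lower a count; no other cause was tested.

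Of 175 alternatives for folds and motif shares, 2 moved. The TCF4 fold of RPL23A was 9.60 within 2 kb, where a further peak came in, and the YY1 motif stood at 4.69% of member starts before the start alone. Windows of 500 bp and 2 kb, the summit rule, the removal of peaks over 30 or more IgG fragments and the 7 added genes kept every count within 1.5 times the reported one. The alternatives of any annotated start and of the nearest end were chosen after seeing the data. No paired analysis was possible because the counts come from no fitted test and each factor's replicates form a single group.

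TCF4 rests on 1 library, so its 58 members have no replicate check. The MEIS2 lists are the shallowest, and their replicates shared 1 member. RPL35A, that member, had a pile-up of 10 in each, and was lost at the stricter threshold. Peaks within 1 kb of a gene end can belong to a neighbouring gene, and the 17 members without a promoter entry entered no count by start or motif.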
